A study of Mus musculus with 6 samples.

Results

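The 10 genes described here belong to the antioxidant programme of the transcription factor NRF2 and to the machinery of ferroptosis, a form of cell death driven by iron and by the peroxidation of membrane lipids. They were chosen by name: Slc7a11, Gclc, Gclm, Gpx4, Aifm2, Acsl4, Txnrd1, Prdx1, Srxn1 and Nqo1. They are 10 of the 54532 genes in each of 6 RNA-seq libraries, 1 library per condition. Iron dextran or PBS was given to C57BL/6 mice by intraperitoneal injection of 0.2 mL at 25 mg/mL, 6 times on alternate days, and the methods state that mice were 6 to 8 weeks old. WT mice received PBS and WT/FE mice iron, both without leukemia. MA9 mice (PBS) and MA9/FE mice (iron) carried transplanted GFP+ leukemia cells, made by retroviral transfer of the human fusion oncogene MLL-AF9 into c-kit+ bone marrow cells, and their injections began after the transplantation. Macrophages were sequenced from all 4 kinds of mice and leukemia cells from the MA9 and MA9/FE mice. By the labels the macrophages came from spleen and the leukemia cells from bone marrow, while the study's methods describe sorted bone marrow macrophages. Neither the labels nor the methods say whether a library was 1 animal or a pool. With 1 library per condition there is no spread between animals, so a comparison of a pair of libraries has no test, and every interval below covers counting error only.

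As background, free iron catalyses the formation of radicals that attack polyunsaturated membrane lipids. Cells answer with glutathione, which is built from cysteine and spent by GPX4 on lipid peroxides, and with the thioredoxin and peroxiredoxin systems, which reduce proteins and hydrogen peroxide. NRF2 (Nfe2l2) switches on many of these genes when its inhibitor KEAP1 releases it, and BACH1 occupies the same kind of DNA element as a repressor. Macrophages that digest red cells handle much iron and are known for this programme.

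Levels are the deposited FPKM (fragments per kilobase of exon, scaled to the size of the library), which is per length and can be compared between genes. Values of the 4 macrophage libraries are given in the order WT, WT/FE, MA9, MA9/FE, and those of the leukemia cells in the order MA9, MA9/FE. Reads were recovered as whole multiples of the smallest step, and the depth was 16085348 to 19518360 reads per library. Before the comparisons, the libraries were checked against marker genes of the cells that they could hold. The 8 B cell markers summed to between 1131 and 2015 FPKM in the 4 macrophage libraries, above the sums of the 12 macrophage markers, which lay between 395 and 930 FPKM, and to 19.6 and 18.3 FPKM in the leukemia cells. The libraries labelled macrophages therefore hold macrophage transcripts at lower levels than B cell transcripts, and the name is kept below only as the label. The macrophage markers summed to 414, 724, 395 and 930 FPKM in the macrophage libraries, so they were higher with iron in both kinds of mice. The neutrophil markers summed to 9.89, 12.6, 1807 and 918 FPKM across the macrophage libraries. In the leukemia cells they summed to 2930 and 2236 FPKM, so this list does not tell neutrophils from leukemia cells. The 7 plasma cell markers summed to 1044, 1018, 2117 and 2602 FPKM across the macrophage libraries. The erythroid markers summed to 99.2, 210, 307 and 520 FPKM, and their median was 2.55, 3.18, 12.5 and 9.55 FPKM. Their sum thus rose from MA9 to MA9/FE macrophages while the median fell. The hemoglobin gene Hba-a1 went from 103 to 210 FPKM there, and Klf1 from 24.9 to 15.0. The leukemia cell markers reached 4650 and 4069 FPKM in the leukemia cells and 38.4, 33.9, 198 and 112 in the macrophages. The T cell markers lay between 66.9 and 89.9 FPKM in the macrophages and at 1.83 and 1.24 in the leukemia cells. No list was at 0 as a whole in any library. The markers at 0 were Ltf and Mmp8 in WT and Camp and Mmp8 in WT/FE macrophages (neutrophil), Hoxa10 in both of these libraries (leukemia cell), and Cd3e, Cd3g and Cd8a in MA9/FE leukemia cells (T cell). The part of this mixture in the values below was not tested, and in bulk RNA a change in the share of a cell type and a change in the RNA per cell cannot be told apart.

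**Figure D1:**
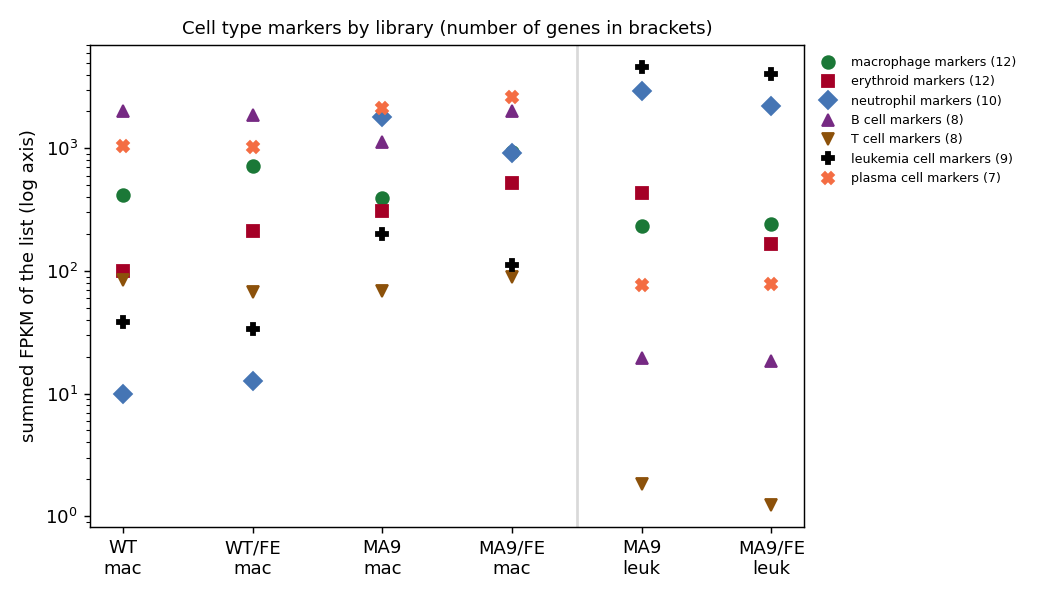
Summed FPKM (log axis) of 7 lists of cell type markers in each of the 6 libraries; mac, macrophages; leuk, leukemia cells. B cell markers lie above the macrophage markers in all 4 macrophage libraries, between 1131 and 2015 FPKM. Neutrophil markers go from 9.89 and 12.6 in WT and WT/FE to 1807 and 918 in MA9 and MA9/FE macrophages. They are higher still in the leukemia cells, at 2930 and 2236.

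Cystine import and glutathione synthesis are represented by 3 genes. Slc7a11 encodes the light chain of the cystine/glutamate antiporter xCT and had the lowest level of the 10 genes in 5 of the 6 libraries. Its FPKM was 0.607, 0.607, 0.435 and 0.277 across the macrophage libraries and 0.0910 and 0.0483 across the leukemia cells, from 165, 142, 103, 62, 23 and 12 reads. The exact 95% intervals of the leukemia cell levels lay below those of all 4 macrophage libraries. Slc3a2, the heavy chain that carries xCT to the membrane and also serves other transporters, was at 42.3, 42.0, 48.9 and 62.5 FPKM in the macrophages and at 40.3 in both leukemia cell libraries. A stretch of 373 bases in the Slc7a11 transcripts is 96.2% identical to the tubulin gene Tuba1b, which stood at 385 and 448 FPKM in the leukemia cells, where Slc7a11 was lowest.

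Gclc and Gclm encode the catalytic and the modifier subunit of glutamate-cysteine ligase, the rate-limiting enzyme of glutathione synthesis. Gclc was at 17.5, 15.3, 19.7 and 15.9 FPKM across the macrophage libraries and at 13.9 and 14.3 across the leukemia cells. Gclm was lower per length, at 3.60, 3.53, 8.18 and 5.60 FPKM in the macrophages, with MA9 the highest, and at 6.01 and 6.71 in the leukemia cells. The catalytic subunit therefore stayed within a ratio of 1.42 between its highest and lowest library, while the modifier spread over a ratio of 2.32. The ratio of Gclm to Gclc in FPKM, computed after the levels had been seen, was 0.205 (95% interval 0.184 to 0.229) in WT and 0.231 (0.205 to 0.261) in WT/FE macrophages. MA9 macrophages were at 0.415 (0.380 to 0.452), MA9/FE macrophages at 0.352 (0.317 to 0.391), and the leukemia cells at 0.434 and 0.470. All 4 libraries from leukemic mice thus had a higher ratio than both libraries from mice without leukemia, with no overlap of the intervals.

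The brakes and the driver of ferroptosis are the next group. Gpx4, the selenoprotein that reduces phospholipid hydroperoxides, was at 52.2, 44.2, 53.4 and 73.6 FPKM across the macrophage libraries, and at 90.0 and 91.3 across the leukemia cells. It was the highest of the 10 genes in WT and WT/FE macrophages and in both leukemia cell libraries, and its levels in the leukemia cells lay above those of all macrophage libraries. A transcribed pseudogene, Gpx4-ps2, shares 733 bases with Gpx4 at 99.7% identity and was listed at 16.5, 15.3, 16.8 and 24.0 FPKM in the macrophages and at 29.1 and 32.7 in the leukemia cells. Per its own, shorter length these levels correspond to 205 to 465 reads, beside 1281 to 2816 reads of Gpx4. Reads could be assigned to either gene, so the level of Gpx4 is uncertain. Aifm2 encodes FSP1, which regenerates reduced coenzyme Q at membranes without glutathione. It was at 1.16, 1.27, 1.33 and 1.12 FPKM across the macrophage libraries and at 6.27 and 5.02 across the leukemia cells, so the 4 macrophage libraries lay close together and far below both leukemia cell libraries. Of the 4121 exon bases of Aifm2, 233 are also exon of H2afy2 on the opposite strand, a histone variant gene that was at 0.424, 0.0547, 0.243 and 0.257 FPKM in the macrophages and at 7.93 and 7.01 in the leukemia cells. Whether the reads were counted by strand is not given in the sources used here, and without strand the reads of the shared bases cannot be told apart. Acsl4, which loads polyunsaturated fatty acids into membrane lipids and so provides the substrate of ferroptosis, had the narrowest range, with 8.21, 8.40, 9.10 and 8.32 FPKM in the macrophages and 7.03 and 6.66 in the leukemia cells.

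The thioredoxin and peroxiredoxin system comprises Txnrd1, Prdx1 and Srxn1. Txnrd1, the cytosolic thioredoxin reductase and itself a selenoprotein, was at 9.38, 9.34, 12.9 and 10.5 FPKM in the macrophages and at 21.7 and 21.5 in the leukemia cells. Prdx1, an abundant peroxidase that removes hydrogen peroxide, was at 47.2, 37.9, 59.2 and 74.8 FPKM in the macrophages and at 46.7 and 52.2 in the leukemia cells. It exceeded Gpx4 in MA9 macrophages, while in MA9/FE macrophages the intervals of both genes overlapped. A processed pseudogene, Gm21399, is 98.3% identical to it over 597 bases and had 6 to 27 reads per library. Srxn1 encodes sulfiredoxin, which repairs overoxidised peroxiredoxins, and was at 0.472, 1.06, 1.25 and 1.10 FPKM in the macrophages, from 26, 50, 60 and 50 reads, and at 3.36 and 3.64 in the leukemia cells. WT macrophages were the lowest, the other macrophage libraries lay together, and the leukemia cells were the highest. Nqo1, the quinone reductase often used as a readout of NRF2, was at 0.858, 0.690, 2.42 and 1.72 FPKM in the macrophages and at 1.17 and 0.757 in the leukemia cells, from 18 to 64 reads. The macrophages of MA9 and MA9/FE mice lay above the other 4, although the interval of MA9/FE macrophages overlapped with those of WT macrophages and MA9 leukemia cells.

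**Figure D2:**
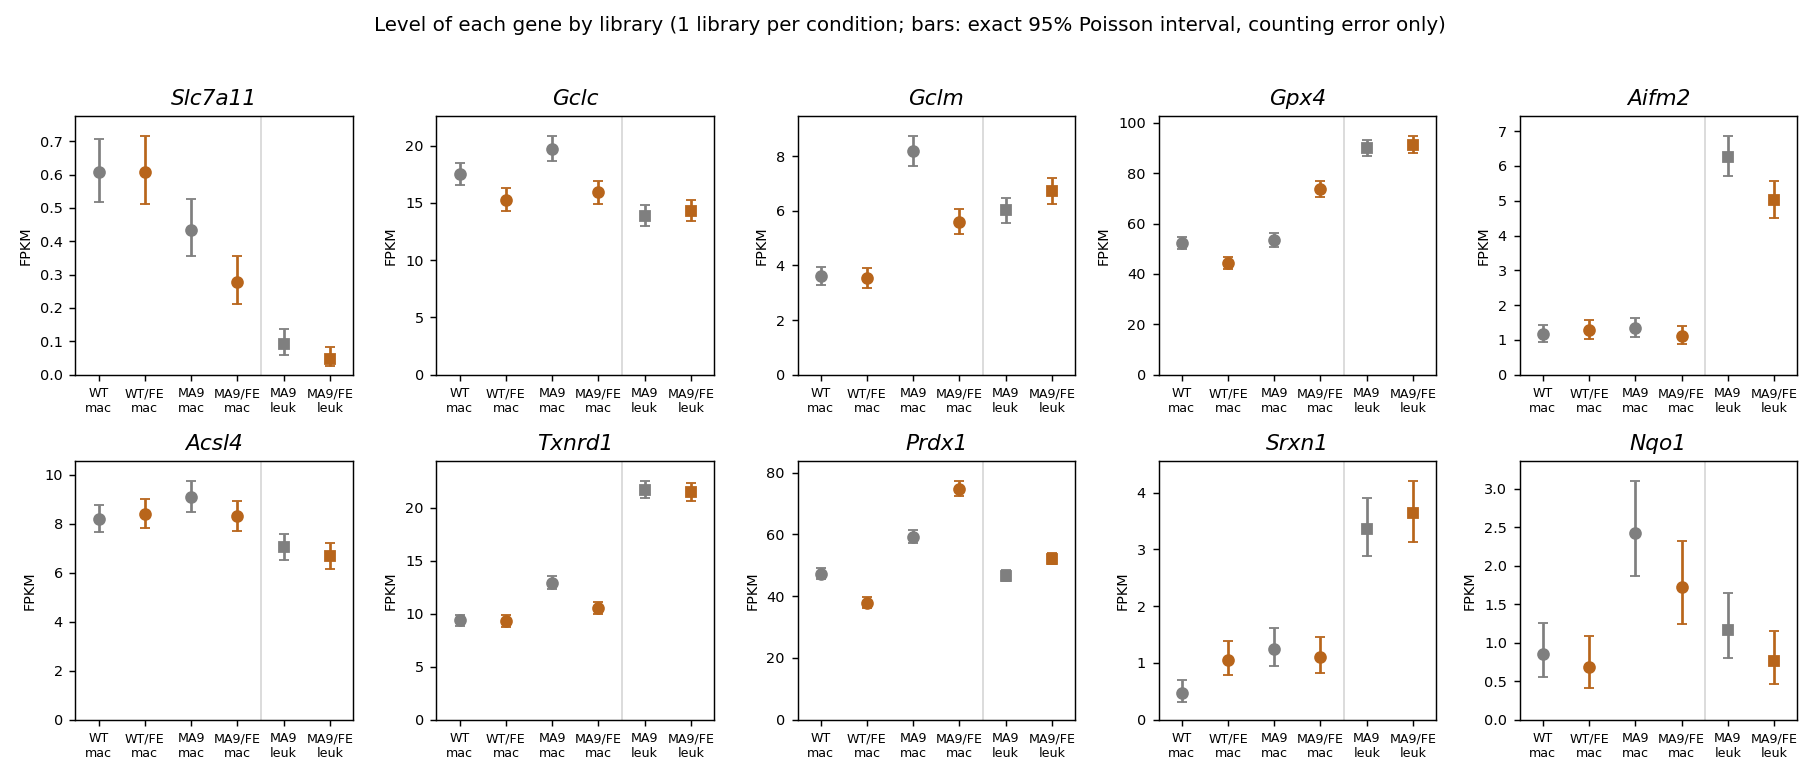
FPKM of the 10 genes in each library, 1 panel per gene with its own axis from 0; grey, without iron; brown, with iron; circles, macrophages (mac); squares, leukemia cells (leuk); bars, exact 95% Poisson interval for counting error only. Aifm2, Srxn1, Gpx4 and Txnrd1 are highest in the leukemia cells, Slc7a11 is lowest there, and Gclm and Nqo1 are highest in MA9 macrophages at 8.18 and 2.42 FPKM.

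NRF2 acts through the antioxidant response element, whose core is written TGACNNNGC. Both strands of the 300 bases around each RefSeq start, 250 before and 50 after, were searched for these letters in the GRCm38.p6 assembly. The search covered 9 of the 10 genes, with 14 starts, and Gclc is named only. The core was found at 4 of the 14 starts, those of Srxn1, Gclm and Prdx1 and 1 of the starts of Txnrd1. Among all promoters of the same length, 4071 of 32851 (12.4%) held it. It overlaps in sequence with the AP-1 motif TGACTCA, which the Prdx1 match also contains on the reverse strand. The matches are shown because these are the promoters in which the letters read by NRF2 and BACH1 occur near the start. They are written along the + strand, which is the strand of all 4 genes, with the core in capitals; it reads on the reverse strand in each. The windows are chr2:152105542-152105570 (Srxn1, core 28 bases after the start), chr3:122245397-122245456 (Gclm, 134 bases before the start), chr4:116685440-116685499 (Prdx1, 133 bases before) and chr10:82859088-82859147 (Txnrd1, 92 bases before an internal start).
Srxn1: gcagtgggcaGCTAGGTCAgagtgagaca
Gclm: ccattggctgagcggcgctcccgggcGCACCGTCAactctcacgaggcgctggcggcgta
Prdx1: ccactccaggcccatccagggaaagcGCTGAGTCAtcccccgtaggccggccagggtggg
Txnrd1: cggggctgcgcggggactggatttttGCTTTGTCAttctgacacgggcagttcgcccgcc
A match of letters is a description and does not show a binding site. Nqo1, Slc7a11, Gpx4, Aifm2 and Acsl4 had no match in these windows, which says nothing of sites elsewhere.

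The first question was what iron did in macrophages of mice without leukemia. Between WT/FE and WT macrophages, none of the 10 genes was at a 2-fold or larger difference (called a fold of 2 below, and counted on TMM-scaled log2(FPKM + 1)), where 1.27% of the 16754 genes with at least 10 reads in either library did. All 10 genes passed this minimum of reads here and in every other comparison. Srxn1 was the one gene higher with iron beyond counting error, at a ratio of 2.22 (95% interval 1.36 to 3.72), which is a log2 change of 0.48 after 1 is added to its low FPKM. Prdx1 was lower, at a ratio of 0.799 (0.754 to 0.847), as were Gpx4 at 0.843 (0.784 to 0.906) and Gclc at 0.868 (0.797 to 0.944). The intervals of the other 6 genes included 1. Their ratios were 0.995 for Slc7a11, 0.976 for Gclm, 1.09 for Aifm2, 1.02 for Acsl4, 0.992 for Txnrd1 and 0.801 for Nqo1. The median log2 change of the 10 genes was -0.02, beside -0.01 for all genes. Macrophage markers were higher in WT/FE macrophages in 12 of 12 genes, with a median log2 change of 0.95.

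Between MA9/FE and MA9 macrophages, again none of the 10 genes reached a fold of 2, against 2.46% of 16512 genes. Gpx4 was at a ratio of 1.41 (1.32 to 1.51) and Prdx1 at 1.30 (1.23 to 1.36), both higher with iron. Slc7a11, Gclm and Gclc were lower with iron, with ratios of 0.652 (0.468 to 0.903), 0.702 (0.631 to 0.781) and 0.827 (0.760 to 0.900). The partner of Slc7a11, Slc3a2, was higher at 1.31 (1.25 to 1.38), and 7 of 9 tested genes of the wider list of glutathione synthesis and recycling, which includes it, had a log2 change above 0 (median 0.15). Txnrd1 was lower as well, at 0.836 (0.774 to 0.901). The intervals of Nqo1 (ratio 0.728), Srxn1 (0.903), Aifm2 (0.862) and Acsl4 (0.937) included 1. When a trend of the fold change on exon length was removed, the log2 fold change of Gpx4 (1724 exon bases) went from 0.49 to 0.29. That of Prdx1 (3043 exon bases) went from 0.37 to 0.27. The same step took Slc7a11 from -0.16 to 0.02, Nqo1 from -0.31 to -0.52 and Srxn1 from -0.08 to -0.20. These genes are at low FPKM, where adding 1 shrinks the change but not the trend taken off it. With 0.1 added in place of 1 and no trend removed, the log2 change of Slc7a11 was -0.48. Beside these values, the neutrophil markers were lower in 10 of 10 genes in MA9/FE than in MA9 macrophages (median log2 change -0.91), and the leukemia cell markers in 9 of 9 (median -0.52). The macrophage markers were higher in 12 of 12 genes (median 1.02), the B cell markers in 8 of 8 (median 0.57) and the T cell markers in 7 of 8 (median 0.66). Erythroid markers were higher in 6 of 12 genes (median 0.05).

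The iron comparison was then made in the leukemia cells. Between MA9/FE and MA9 leukemia cells, none of the 10 genes had a fold of 2, and 0.863% of 15415 genes did. The largest change on the log2(FPKM + 1) scale was -0.30, that of Nqo1. Gpx4, the main brake, was at a ratio of 1.01 (0.963 to 1.07), and Txnrd1 at 0.990 (0.939 to 1.04). Prdx1 at 1.12 (1.06 to 1.18) and Gclm at 1.12 (1.0 to 1.24) were slightly higher with iron, and Aifm2 at 0.800 (0.696 to 0.919) was lower. For the scarce transcripts the counts were limiting: Slc7a11 was at 0.530 (0.241 to 1.11) from 23 and 12 reads and Nqo1 at 0.647 (0.356 to 1.15) from 33 and 21 reads. The intervals of Gclc (1.03), Srxn1 (1.08) and Acsl4 (0.947) also included 1. The erythroid markers were lower with iron in 11 of 12 genes, from a sum of 430 to 164 FPKM.

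**Figure D3:**
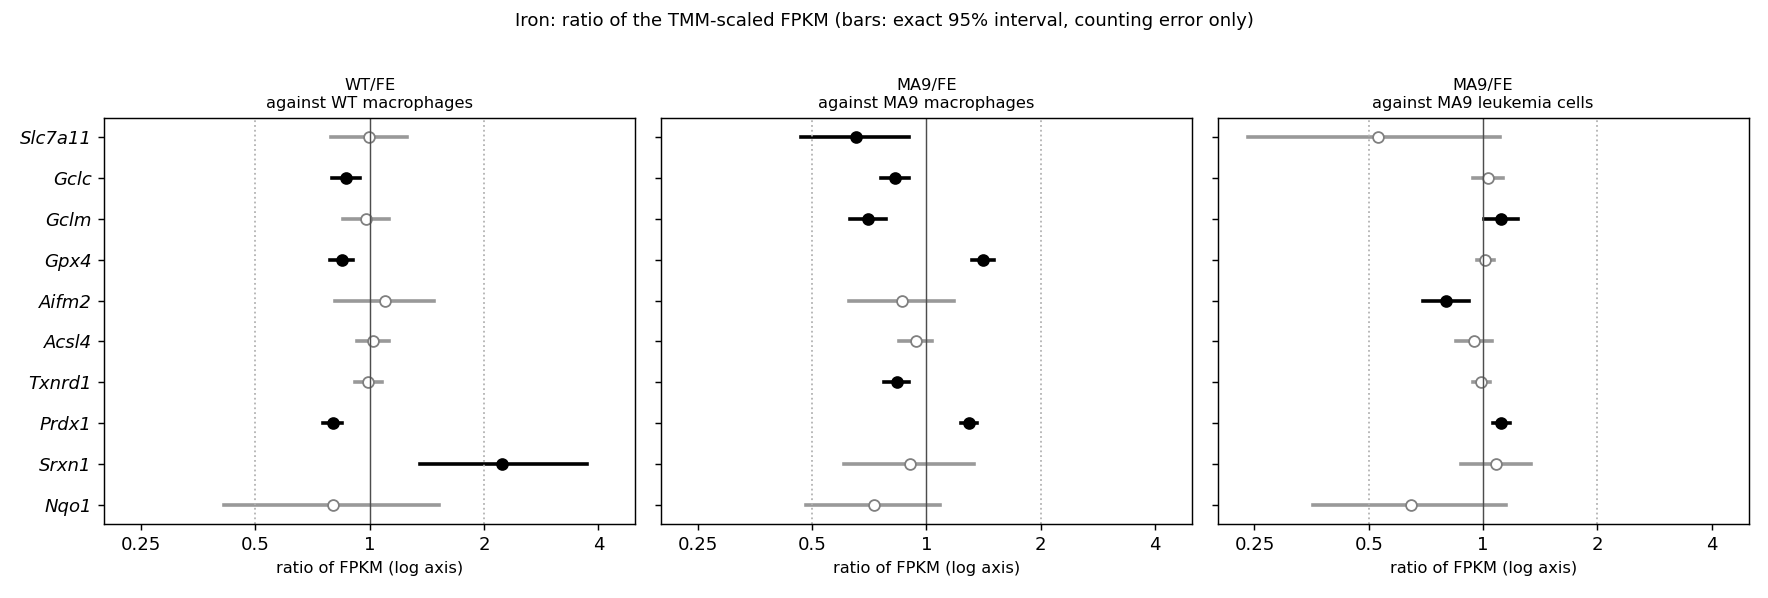
Ratio of the scaled FPKM with iron to that without (log axis) for the 10 genes in WT macrophages, MA9 macrophages and MA9 leukemia cells; bars, exact 95% interval of counting error; filled points, interval does not include 1; dotted lines, ratios of 0.5 and 2. Gpx4 and Prdx1 lie below 1 in WT and above 1 in MA9 macrophages, and Srxn1 in WT macrophages (2.22) is the one point beyond 2.

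Across kinds of cell, limma (log2(FPKM + 1), Benjamini-Hochberg adjustment over all genes) was used where several libraries could be combined. The combined libraries are of different conditions, so its SE and p rest on how far a change differs between them and on the spread of all genes. They do not measure spread between animals. For iron over the 4 macrophage libraries, with leukemia as an additive term and 1 residual degree of freedom, 0 of the 10 genes passed an adjusted p of 0.05, and 0 had an unadjusted p below it. Of all 16268 genes, 0.215% passed. The smallest p was that of Gclc, with a log2 change of -0.24 (SE 0.18, limma adjusted p = 0.9997). For iron over the 3 pairs of libraries, with the kind of cell as a block, 0% of the 17152 genes passed, and 610 genes but none of the 10 had an unadjusted p under 0.05. Nqo1 had the smallest p of the 10, with a log2 change of -0.26 (SE 0.10, limma adjusted p = 0.992), and its ratio was below 1 in 3 of 3 pairs. No common change of these genes with iron was thus detected, which with so few libraries does not show that there was none.

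The next comparison asked what leukemia did to the macrophages. Between MA9 and WT macrophages, 9 of the 10 genes had a log2 change above 0, with a median of 0.25 beside -0.0030 for all genes. Gclm, at a ratio of 2.29 (2.04 to 2.58) and a log2 change of 1.01, was the 1 gene of 10 with a fold of at least 2, where 4.70% of 16926 genes reached it. It sits at the threshold: its log2 change was 0.997 with scaling by total reads, 0.996 with median-of-ratios scaling and 0.985 with the trend on exon length removed. Nqo1 had a larger ratio, 2.85 (1.78 to 4.69), and Srxn1 2.67 (1.66 to 4.41), but at their low levels these were log2 changes of 0.89 and 0.62 on the scale with 1 added. Txnrd1 at 1.39 (1.29 to 1.5), Prdx1 at 1.27 (1.20 to 1.33), Gclc at 1.14 (1.05 to 1.23) and Acsl4 at 1.12 (1.02 to 1.23) were higher by less. Slc7a11 alone was lower, at 0.723 (0.560 to 0.931), and the intervals of Gpx4 (1.03) and Aifm2 (1.16) included 1.

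Where MA9/FE was set against WT/FE, both from mice given iron, none of the 10 genes was at a fold of 2 by this rule, against 4.57% of 16571 genes. Prdx1 came nearest, with a ratio of 2.0 (1.90 to 2.12) and a log2 change of 0.98. Gpx4 at 1.69 (1.57 to 1.81), Gclm at 1.61 (1.41 to 1.84), Nqo1 at 2.53 (1.43 to 4.66) and Txnrd1 at 1.15 (1.06 to 1.24) were higher, and Slc7a11 at 0.463 (0.338 to 0.628) was lower. Srxn1 (1.06), Gclc (1.06), Acsl4 (1.0) and Aifm2 (0.891) had intervals that included 1. Gclm, Nqo1, Txnrd1 and Prdx1 were thus higher in macrophages of leukemic mice both without and with iron, and Slc7a11 was lower in both. With iron, removal of the trend on exon length took the log2 change of Slc7a11 from -0.33 to -0.09. At its low FPKM adding 1 shrinks the change but not the trend. With 0.1 added in place of 1 and no trend removed, the change of Slc7a11 was -0.89. Removal of the trend took Nqo1 from 0.70 to 0.46, Gpx4 from 0.74 to 0.53 and Prdx1 from 0.98 to 0.88. Gclm went from 0.56 to 0.60 and Txnrd1 from 0.18 to 0.27.

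In the limma fit over the 4 macrophage libraries, the residual is the difference between the leukemia changes without and with iron, not spread between animals. In this fit leukemia was associated with a rise of Nqo1, at a log2 change of 0.80 (SE 0.19, limma adjusted p = 0.0297). It was the 1 gene of 10 to pass, where 4.97% of 16268 genes did. Gclm had a change of the same size, 0.79 (SE 0.23), that did not pass (limma adjusted p = 0.0695), and Prdx1 was at 0.66 (SE 0.23, limma adjusted p = 0.137). The call of Nqo1 rests on 18 to 64 reads per library and was lost (adjusted p = 0.0877) when the spread was not modelled on the level, an alternative added after the data were seen, and also with no minimum of reads (adjusted p = 0.503). Of the neutrophil markers, 10 of 10 were higher in macrophages of MA9 than of WT mice (median log2 change 5.99). In those of MA9/FE than of WT/FE mice 9 of 10 were. In both comparisons 12 of 12 erythroid, 7 of 7 plasma cell and 8 of 9 leukemia cell markers were higher. B cell markers were higher in 0 of 8 genes without iron (median -0.73) and in 3 of 8 with iron (median -0.21). For T cell markers these counts were 4 of 8 and 7 of 8, and for macrophage markers 4 of 12 and 6 of 12. The part of these cells in the changes of Nqo1 and Gclm was not tested.

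The leukemia cells were then set beside the macrophages of the same kind of mice. These libraries differ in cell type, in labelled tissue and in sort, which cannot be told apart. Between MA9 leukemia cells and MA9 macrophages, 1 of the 10 genes, Aifm2, had a fold of at least 2, where 20.0% of 17044 genes did. Between MA9/FE leukemia cells and MA9/FE macrophages these were 2 genes, Aifm2 and Srxn1, where 22.8% of 16842 genes did. With a pseudocount of 0.1 in place of 1, 4 of the 10 genes were called in each, where 34.1% and 38.6% of all genes were. Aifm2 was at a ratio of 4.62 (3.69 to 5.83) without iron and 4.40 (3.42 to 5.73) with iron. Srxn1 was at 2.62 (1.95 to 3.58) and 3.23 (2.35 to 4.51), Txnrd1 at 1.64 (1.54 to 1.75) and 2.0 (1.87 to 2.14), and Gpx4 at 1.65 (1.55 to 1.75) and 1.22 (1.15 to 1.29), in the same order.

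Lower in the leukemia cells in both comparisons were Slc7a11, at 0.204 (0.124 to 0.324) and 0.171 (0.0839 to 0.320), and Nqo1, at 0.472 (0.30 to 0.729) and 0.431 (0.243 to 0.743). Gclc at 0.687 and 0.880, Acsl4 at 0.756 and 0.786, and Prdx1 at 0.771 and 0.684 were lower by less, with intervals below 1. Gclm turned from 0.719 (0.650 to 0.795) without iron to 1.17 (1.05 to 1.31) with iron. The ratio of Gpx4 to Acsl4, computed after the levels had been seen, was between 5.26 and 8.85 in the macrophages and 12.8 and 13.7 in the leukemia cells. That of Aifm2 to Gpx4 was between 0.0152 and 0.0287 in the macrophages and 0.0697 and 0.0549 in the leukemia cells.

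**Figure D4:**
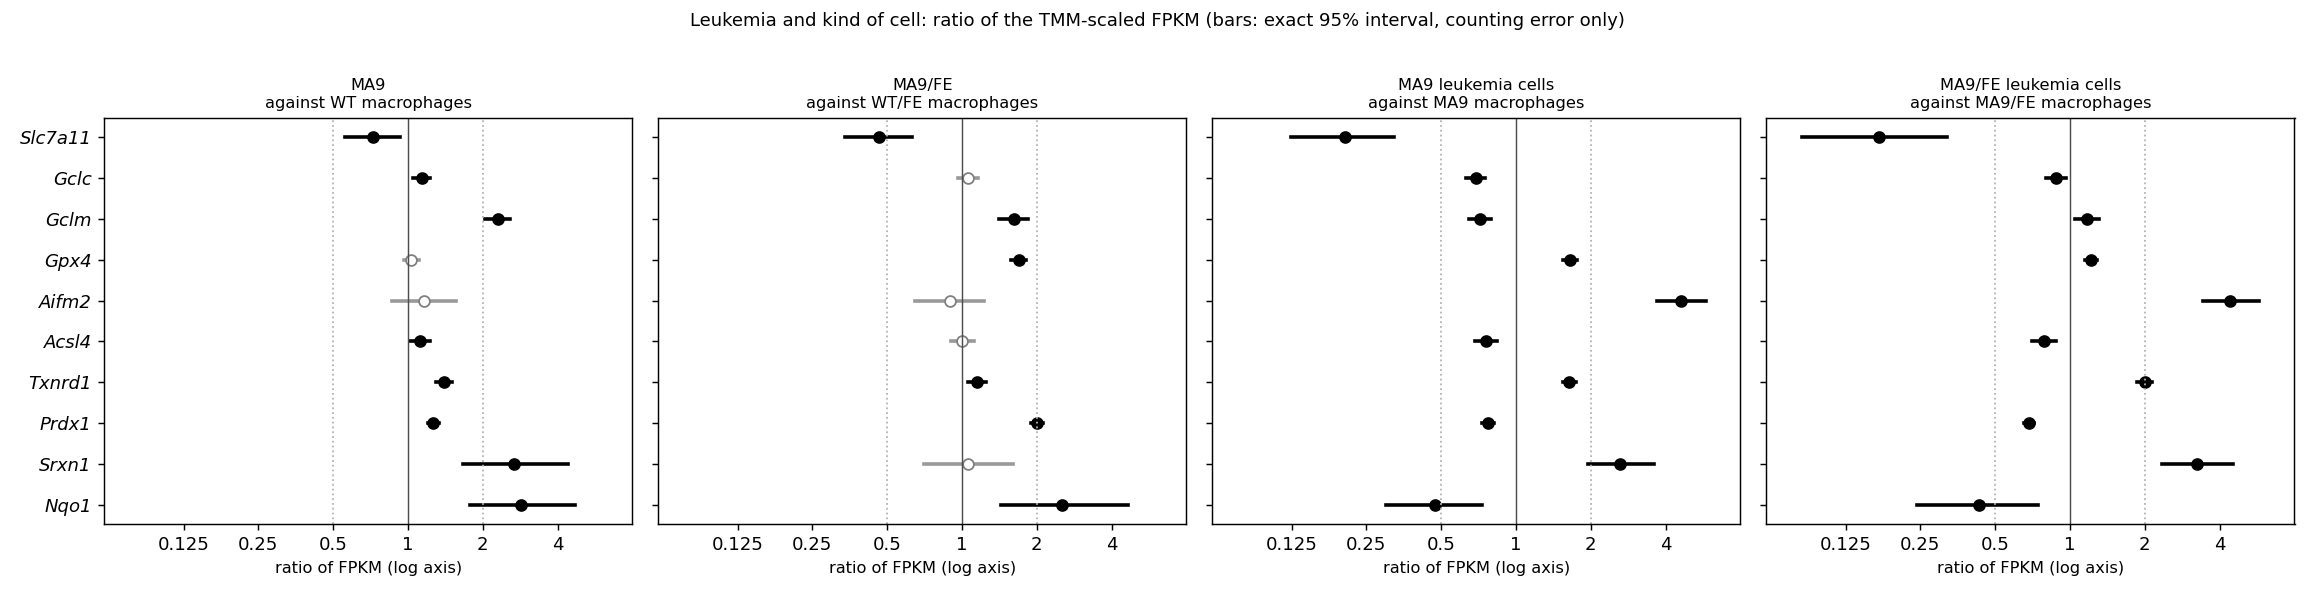
Ratio of the scaled FPKM (log axis) for the 10 genes in macrophages with leukemia against those without (left, no iron; next, iron), and in leukemia cells against macrophages of MA9 and of MA9/FE mice; bars, exact 95% interval of counting error; filled points, interval does not include 1; dotted lines, ratios of 0.5 and 2. Aifm2 stands at 4.62 and 4.40 in the leukemia cells and near 1 between macrophages, and Slc7a11 lies left of 1 in all 4 panels.

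The regulators Nfe2l2, Keap1 and Bach1 stayed below a fold of 2 in every comparison. Nfe2l2, the gene of NRF2, was at 17.4, 16.4, 22.2 and 21.5 FPKM in the macrophages and at 15.0 in both leukemia cell libraries. Its ratio was 1.29 (1.20 to 1.39) in MA9 against WT and 1.33 (1.23 to 1.44) in MA9/FE against WT/FE macrophages, and its intervals for iron included 1 in all 3 pairs. Keap1, its inhibitor, was at 13.0, 14.7, 16.2 and 14.4 FPKM in the macrophages and at 19.4 and 18.5 in the leukemia cells. Bach1, the repressor, was at 11.9, 13.3, 13.5 and 10.2 FPKM in the macrophages and at 13.4 and 16.3 in the leukemia cells. With iron it was at a ratio of 1.12 (1.04 to 1.20) in WT macrophages, 0.777 (0.717 to 0.843) in MA9 macrophages and 1.22 (1.14 to 1.31) in leukemia cells. NRF2 is regulated mainly through the stability of its protein, which RNA does not measure. Of the 8 genes of the list of NRF2 and its regulators, the one with a fold of 2 in any comparison was Mafg, a small MAF partner of NRF2, at ratios of 2.88 (2.70 to 3.08) and 3.15 (2.93 to 3.39) in the leukemia cells against the macrophages.

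The wider lists placed the 10 genes among their pathways. For iron, none of the 68 tested genes of the 6 lists in WT macrophages, and none of the 67 in leukemia cells, had a fold of 2. In WT/FE against WT macrophages, 12 of 15 other NRF2 targets and 10 of 15 ferroptosis genes had a log2 change above 0 (medians 0.13 and 0.07). Of the lists of thioredoxin, peroxiredoxin and oxidant removal and of selenoprotein synthesis, 3 of 12 and 3 of 10 did (medians -0.10 and -0.11). In MA9/FE against MA9 macrophages, 1 of 15 other NRF2 targets, the epoxide hydrolase gene Ephx1, was higher at a ratio of 2.44 (2.23 to 2.68), from 20.0 to 47.7 FPKM, beside the 2.46% of all genes with a fold of 2. In the same comparison 1 of 10 genes of the list of selenoprotein synthesis was higher. This list also holds selenoproteins themselves, and the gene was one of these, the plasma selenium carrier gene Selenop, at 2.19 (2.03 to 2.37). The lists of glutathione synthesis and recycling (0 of 9), of thioredoxin, peroxiredoxin and oxidant removal (0 of 12) and of ferroptosis lipid and brake genes (0 of 15) held none. The log2 change was above 0 in 10 of 12 thioredoxin list genes (median 0.23) and 9 of 10 selenoprotein list genes (median 0.36). It was above 0 in 2 of the 10 genes (median -0.14), 1 of 8 regulators (-0.05) and 7 of 15 ferroptosis genes (-0.01). The median of all genes was 0.01. The trend on exon length was not removed from the values of the wider lists. In this comparison its removal lowered the changes of Gpx4 and Prdx1. Hmox1, of the other NRF2 targets, went with iron from 104 to 133 FPKM in WT and from 104 to 167 in MA9 macrophages. Ephx1 was lower in MA9 than in WT macrophages, at a ratio of 0.436 (0.398 to 0.477), so that in the 4 macrophage libraries it was low in MA9 alone.

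For leukemia, where 4.70% and 4.57% of all genes had a fold of 2 without and with iron, Txn1, the thioredoxin that TXNRD1 reduces, was higher at 2.13 (2.01 to 2.27) in MA9 against WT and at 2.63 (2.46 to 2.80) in MA9/FE against WT/FE macrophages. It was 1 of 12 genes of its list in the first comparison and 1 of 3 in the second, together with the peroxidase genes Prdx2 at 2.05 (1.91 to 2.2) and Prdx4 at 2.42 (2.16 to 2.73). Of 15 other NRF2 targets, the glutathione transferase gene Gstm1 was higher in MA9 macrophages at 2.80 (2.22 to 3.55), and the biliverdin reductase gene Blvrb in MA9/FE macrophages at 2.09 (1.93 to 2.27). Alox15, a lipid-oxidising enzyme, was the one ferroptosis gene of 14 with such a fold, higher in MA9 (84 reads) than in WT macrophages (17 reads). The median log2 change of the thioredoxin list was 0.37 and 0.68 in these comparisons, beside -0.0030 and 0.01 for all genes. The trend on exon length was not removed from these medians either. Prdx2 is also abundant in red cells, whose markers were higher in MA9/FE than in WT/FE macrophages in 12 of 12 genes (median log2 change 1.38). The part of red cells in the changes of Prdx2 and of the other genes named here was not tested.

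Between leukemia cells and macrophages the lists split, and the counts of 2-fold differences below stand beside 20.0% of all genes without and 22.8% with iron. Gsr, which recycles oxidised glutathione, was higher in the leukemia cells at 7.61 (7.18 to 8.07) without and 9.13 (8.59 to 9.71) with iron, and Gpx1, the major soluble glutathione peroxidase, at 3.27 and 2.36. These were 2 of 9 and 2 of 10 genes of their list. Gstm1 was higher at 23.1 and 22.8, and Pgd, an NADPH-making enzyme of the pentose phosphate pathway, was at 6.44 without iron. Hmox1, the heme-degrading enzyme of macrophages, was at 104, 133, 104 and 167 FPKM in the macrophages and at 13.0 and 14.2 in the leukemia cells, ratios of 0.123 and 0.0834. Ephx1 was at 0.00827 and 0.00885, and Blvrb at 0.10 with iron. Of the other NRF2 targets, 6 were higher and 4 lower of 15 without iron (66.7% of the list), and 5 were higher and 5 lower of 14 with iron (71.4%). Of the thioredoxin list, the mitochondrial and peroxisomal Prdx5 was higher (3.85 and 2.94) and the thioredoxin inhibitor gene Txnip lower (0.459 and 0.298), 1 of 12 each way. Of the ferroptosis list, 2 were higher and 4 lower of 14 without iron (42.9%), and 2 higher and 3 lower of 15 with iron (33.3%). Gch1, which supports another brake through tetrahydrobiopterin, was lower (0.358 and 0.314), and the lipoxygenase gene Alox5 was higher (2.42 and 3.29). Lpcat3, which remodels membrane phospholipids, was below a fold of 2 at 1.57 and 1.92. Ncoa4, the receptor for ferritin breakdown, was higher (2.72 and 3.02). Scd1, which makes monounsaturated fatty acids, was at 64.8 and 81.2 FPKM in the macrophages and 0.125 and 0.185 in the leukemia cells. Sephs2, which makes the selenium donor of selenoproteins, was higher (3.39 and 2.77), and Selenop was lower (0.437 and 0.201).

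**Figure D5:**
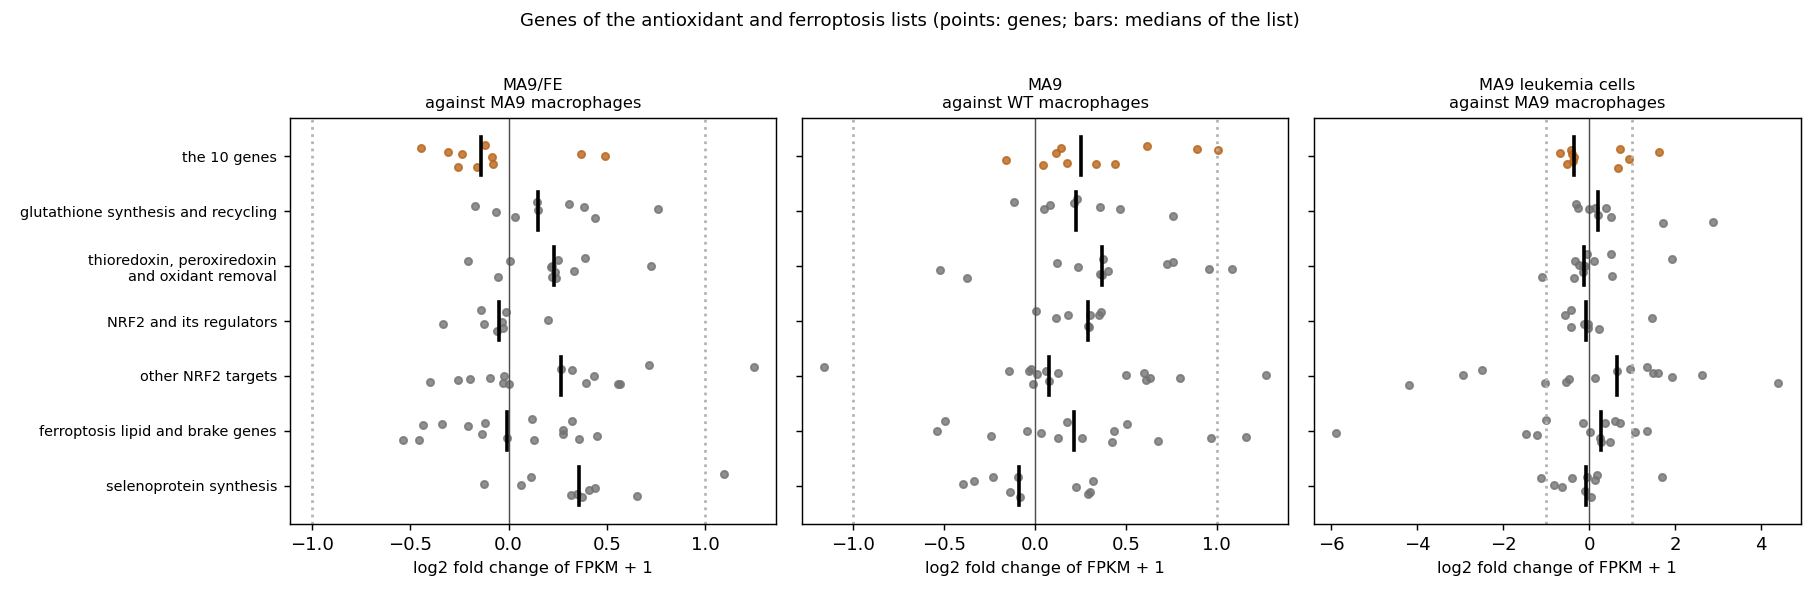
Log2 fold change of FPKM + 1 of every gene with at least 10 reads in the 10 genes (brown) and the 6 wider lists (grey) for MA9/FE against MA9 macrophages, MA9 against WT macrophages, and MA9 leukemia cells against MA9 macrophages; bars are list medians, dotted lines a fold of 2, and the third panel has a wider axis. The medians stay between -0.36 and 0.64, while single genes of the lists of other NRF2 targets and ferroptosis lie far out on both sides in the leukemia cells.

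For the 3 of the 10 genes with the widest range on the log2(FPKM + 1) scale, the genes with the most similar profile over the 6 libraries were sought among 12062 genes, by the root mean square difference of centred log2(FPKM + 1). Nearest to Aifm2 were Slc32a1 (0.05), Abcc8 (0.06) and 2610507I01Rik (0.06). With 1 added to the FPKM, unlike ratios can give a similar profile. Slc32a1 was at 0 to 0.0210 FPKM in the macrophages and 2.09 and 1.62 in the leukemia cells. Abcc8 was at 0 to 0.0291 and at 2.47 and 1.94, whereas Aifm2 was at 1.12 to 1.33 and at 6.27 and 5.02. Nearest to Srxn1 were 3110082I17Rik (0.07), Zfand4 (0.09) and Pip5k1b (0.10), and nearest to Txnrd1 were Ccnd3 (0.03), Nup93 (0.04) and Rcc2 (0.04). None of these is among the 10 genes or in the wider lists. By the ratio of the highest to the lowest FPKM the range of Slc7a11 was the widest, at 12.6, and that of Txnrd1 was 2.32. The profiles are over 6 libraries that differ mainly by kind of cell.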

How the data were processed

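Macrophages (4 libraries) and leukemia cells (2 libraries) were sequenced on an Illumina NovaSeq, 1 library per condition. FPKM of 54532 genes, by Ensembl identifier, are the values deposited. The submitters' processing notes name Bowtie2 2.2.5, RSEM and the mm10 build; the annotation and strand setting are not given in the sources used here. GENCODE M21 gave symbols and exon lengths for 54495 genes. FPKM multiplied by exon length was whole within 0.05 reads for 96.8% to 97.0% of values above 0, and these recovered reads gave depth, exact Poisson intervals and exact intervals of ratios.

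Groups came from the sample labels. A fold of at least 2 was counted on log2(FPKM + 1) after TMM scaling of the pair (coded by hand), with at least 10 reads in either library. limma 3.58.1 (R 4.3.3, moderation with a trend on the level) was fitted to the 4 macrophage libraries (iron and leukemia, additive) and to the 3 pairs (iron, with the kind of cell as a block). Genes needed 10 reads in 2 or more libraries, and p-values were adjusted over all genes by Benjamini-Hochberg. Near-identical copies were sought with blastn 2.17.0. The scripts were tested on simulated data. Alternatives were other scalings, a pseudocount of 0.1, removal of a trend on exon length, other minimums of reads, leaving out pairs and no block.

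The 10 genes, the wider lists and the markers were chosen with earlier results of these data known. Named were all 10 genes, in each fit the genes that passed or the one with the smallest p, at most 4 genes per wider list and comparison by size of the fold among those with at least 100 reads, Nfe2l2, Keap1, Bach1 and Slc3a2, and the 3 genes most like each of the 3 genes with the widest range. Alox15, Alox5, Gch1, Lpcat3 and H2afy2 were named after their values were seen, as were the copies of Gpx4 and Slc7a11.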

Additional observations from a re-analysis of the deposited data

Results flagged for a closer look

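For 3 of the 10 genes the iron comparison went in opposite directions in different kinds of cell, each beyond counting error. The difference between the kinds of cell was not tested, since each condition has 1 library. Gpx4 was lower with iron in WT macrophages and higher in MA9 macrophages, and its log2 changes differed by 0.73 (0.47 with the trend on exon length removed). Prdx1 did the same, with a difference of 0.68. Prdx1 was also higher with iron in leukemia cells, 0.47 above its change in WT macrophages. Gclm was lower with iron in MA9 macrophages and higher in leukemia cells, a difference of 0.58, though its interval in leukemia cells began at 1.0. Several marker lists moved with iron in these libraries. In WT macrophages the median log2 change with iron was -0.03 for B cell markers (3 of 8 above 0) and -0.37 for T cell markers (0 of 8 above 0). In MA9 macrophages it was 0.57 for B cell (8 of 8 above 0), 0.66 for T cell (7 of 8), -0.52 for leukemia cell (0 of 9) and -0.91 for neutrophil markers (0 of 10). Macrophage markers were higher with iron in both, at 0.95 and 1.02. The part of these cells in the values of Gpx4, Prdx1 and Gclm was not tested.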

How the results depend on the processing

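The count of 2-fold differences among the 10 genes changed most with the pseudocount. With 0.1 in place of 1 it was 1 (Srxn1) in WT/FE against WT macrophages, 3 in MA9 against WT, 2 in MA9/FE against WT/FE, and 4 in each comparison of leukemia cells with macrophages, 2 higher and 2 lower, because low levels are compressed less. Of all genes 4.68%, 11.7%, 12.6%, 34.1% and 38.6% were then called, in the same order. Gclm in MA9 against WT macrophages lost its call, leaving 0 genes, with scaling by total reads, with median-of-ratios scaling and with the trend on exon length removed. The leukemia fit over 4 libraries called 2 genes with a pseudocount of 0.1, and 0 with no minimum of reads (1 of all genes) or with no trend in the moderation (367 of all genes, chosen after seeing the data). In that fit Nqo1 kept its direction. The fits for iron called 0 of the 10 genes under every alternative run, which leaving out each pair in turn did not change (0 to 0); of all genes, 0 to 68 passed over the 4 libraries. Slc7a11 in MA9/FE against MA9 macrophages changed sign with the trend on exon length removed, as did Srxn1 in MA9/FE against WT/FE. Acsl4 in MA9/FE against WT/FE changed sign with total reads and with median of ratios. None of these was called. At the low FPKM of Slc7a11 and Srxn1, adding 1 shrinks the change but not the trend that was removed. The 3 pairs share a kind of cell and no animal; with 1 library per condition, no pairing by replicate number could be made. Depth limits Slc7a11, Nqo1 and Srxn1, which had 12 to 183 reads.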
